A study of Canis lupus familiaris with 28 samples.

Results

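Immediate early genes were described in FFPE biopsies of primary canine oral malignant melanomas (OMMs), the pigment cell tumours of the mouth. The 10 genes were chosen by symbol as FOS, FOSB, JUN, JUNB, EGR1, ATF3, IER2, DUSP1, ZFP36 and NR4A1, each to be read at its brightest Transcript cluster, the probe group by which the array measures 1 gene. Of these, 9 had a Transcript cluster with their symbol, exactly 1 each, among the 32391 Transcript clusters of the array, and DUSP1 was not analysed here. RNA from the tumours of 28 dogs was hybridised to Canine Gene 1.1 ST arrays, and each tumour had 1 array and counts as 1 replicate. The 18 metastasising (M) OMMs came from dogs that died of metastasis, and the 10 non-metastasising (NM) OMMs from dogs alive over 540 days from surgery. The M OMMs were from 6 cross breed dogs, 4 Golden Retrievers, 3 Labrador Retrievers, 2 Dachshunds and 1 Border Collie, Bullmastiff and Cocker Spaniel each. The NM OMMs were from 4 Golden Retrievers, 2 Labrador Retrievers and 1 Bouvier des Flandres, cross breed dog, Great Dane and Irish Terrier each. The labels name no treatment, allele or age for either group, and the values are those of whole biopsies.

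Immediate early genes are switched on within minutes of a growth factor, stress or injury signal, without new protein synthesis, chiefly through MAP kinases acting on SRF with its ELK partners and on CREB. FOS and JUN family proteins pair through leucine zippers to form the transcription factor AP-1, and ATF3 can join such pairs. EGR1 and NR4A1 bind DNA as a zinc finger protein and an orphan nuclear receptor, and DUSP1 and ZFP36 end the response by inactivating MAP kinases and by promoting decay of AU-rich mRNAs. In surgical tissue these transcripts are also known to respond to handling before fixation.

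Values are log2 RMA values, in which probe signals were quantile normalised across arrays and summarised per Transcript cluster, so that a difference of 1 is a doubling of signal. Means over the 28 tumours ran from 1.45 (FOSB) to 2.90 (FOS), and 6 of the 9 genes had a mean under 2, as had 74.2% of all Transcript clusters. The table holds no detection calls, so it was not known whether these dim genes were above background, and RMA values compress differences between dim signals. The melanocyte markers, 8 of 8 measured, averaged from 1.66 to 4.59 in the M OMMs and from 1.73 to 4.68 in the NM OMMs. The cross breed tumours stood apart in array signal. They lay between -93.2 and -37.5 on the first principal component of all Transcript clusters (34.9% of the variance), against -52.0 to 89.2 in the other 21, and held 1393 to 1591 Transcript clusters above a log2 value of 4, against 1562 to 2073. Comparisons were therefore also made without them. In the study's quality metrics, the cross breed dogs had low shares of probe sets called present, as had some other dogs. The part of RNA quality in the array signal was not tested. Fewer cells of a type and less RNA per cell cannot be told apart in such bulk samples. By the paper's records, the M dogs had higher tumour stages and younger tissue blocks on average than the NM dogs. Surgery was listed for every NM dog and for only some M dogs. Tumour stage, block age and surgery were not used as covariates, and their part in the M minus NM differences was not tested.

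No immediate early gene passed the test between M and NM OMMs. Of the 9 genes, 0 passed an adjusted p under 0.05 and 0 an unadjusted p under 0.05, by limma and by an unpaired t-test. Both tests covered all 32391 Transcript clusters, with Benjamini-Hochberg adjustment. The paper kept only uniquely hybridising Transcript clusters found above background, and corrected its p-values with permutations. It reported Transcript clusters that differed between M and NM OMMs. Its procedure was not repeated here. The background was 0% of 32391 Transcript clusters after adjustment and 2.55% before it (825 by limma, 846 by the t-test). The median difference of the 9 genes, M minus NM, was 0.02 on the log2 scale, against 0.00 over all Transcript clusters, and 6 of 9 were higher in the M OMMs. Each 95% confidence interval spanned 0, from the narrowest, EGR1, to the widest, JUNB.

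FOS, the inducible AP-1 subunit, had a lowest, median and highest value of 2.06, 2.92 and 4.57 in the M OMMs. In the NM OMMs these were 2.16, 2.72 and 4.03. The groups overlapped over nearly their whole range, with 2 M OMMs above every NM OMM and 3 below. The difference was 0.08 ± 0.28 (SE, n = 18 and 10), with a 95% interval from -0.49 to 0.65 (limma, adjusted p = 1).

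FOSB, its paralogue, ran from 1.16 through a median of 1.34 to 3.94 in the M OMMs. The NM OMMs lay at 1.01, 1.38 and 1.71. A single tumour, that of the Cocker Spaniel, made the M range wide, since the other 27 tumours of both groups lay between 1.01 and 1.81. Its value raised the M mean to 1.502 ± 0.63 (SD, n = 18), and without it the M mean was 1.36, against 1.37 ± 0.20 (SD, n = 10). The difference of 0.14 ± 0.20 (SE) became -0.01 without that tumour (limma, adjusted p = 1 in both).

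JUN, the main partner of FOS in AP-1, lay at 1.54, 2.27 and 3.26 in the M OMMs. The NM OMMs had 1.55, 2.36 and 2.73. The groups overlapped, although the 3 highest tumours, from the Bullmastiff (3.26), a cross breed dog (3.18) and a Golden Retriever (2.80), were all M OMMs. The difference was 0.01 ± 0.19 (SE), with an interval from -0.38 to 0.39 (limma, adjusted p = 1).

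JUNB, which can hold back JUN activity, had 1.72, 2.61 and 5.68 in the M OMMs. The NM OMMs lay at 2.45, 2.74 and 3.88. The M OMMs spread to both sides of the NM OMMs, with 3 above every NM OMM and 7 below, and the SD was 0.95 (n = 18) against 0.51 (n = 10). This difference in spread was not tested. The mean difference was -0.08 ± 0.31 (SE), from -0.72 to 0.56 (limma, adjusted p = 1).

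ATF3, a stress-induced repressor of the ATF family, ran through 1.53, 1.79 and 3.46 in the M OMMs. In the NM OMMs it ran through 1.602, 1.95 and 3.10. The M OMM of a Golden Retriever was highest and the NM OMM of the Bouvier des Flandres second. The difference was -0.15 ± 0.18 (SE), from -0.52 to 0.21 (limma, adjusted p = 1).

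EGR1, a zinc finger activator and repressor, lay at 1.53, 1.94 and 2.50 in the M OMMs and at 1.61, 1.86 and 2.28 in the NM OMMs. NR4A1 lay at 1.72, 1.98 and 2.64 and at 1.52, 1.92 and 2.71. Both genes overlapped throughout. Their differences were 0.02 ± 0.10 (SE) for EGR1, from -0.19 to 0.22, and 0.04 ± 0.11 (SE) for NR4A1, from -0.18 to 0.26 (limma, adjusted p = 1).

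IER2, a small nuclear protein induced by serum, had 1.49, 1.89 and 2.60 in the M OMMs. The NM OMMs had 1.44, 1.74 and 2.45. The M OMMs tended to lie above the NM OMMs while overlapping them, and an M OMM exceeded an NM OMM in 70.6% of all pairs of tumours. That share was from 36.1% to 56.1% in the other 8 genes. It was not tested, and not computed over all Transcript clusters. The difference was 0.19 ± 0.12 (SE), from -0.05 to 0.44, with an unadjusted limma p of 0.121, the smallest of the 9 genes, and an adjusted p of 1. It was between 0.16 and 0.27 when each tumour was left out in turn.

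ZFP36, or tristetraprolin, lay at 1.304, 1.74 and 2.11 in the M OMMs. The NM OMMs lay at 1.45, 1.61 and 2.38. The 2 highest tumours were the NM OMMs of a cross breed dog (2.38) and a Labrador Retriever (2.29), and 4 M OMMs lay below every NM OMM. The difference was -0.04 ± 0.11 (SE), from -0.28 to 0.19 (limma, adjusted p = 1).

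**Figure D1:**
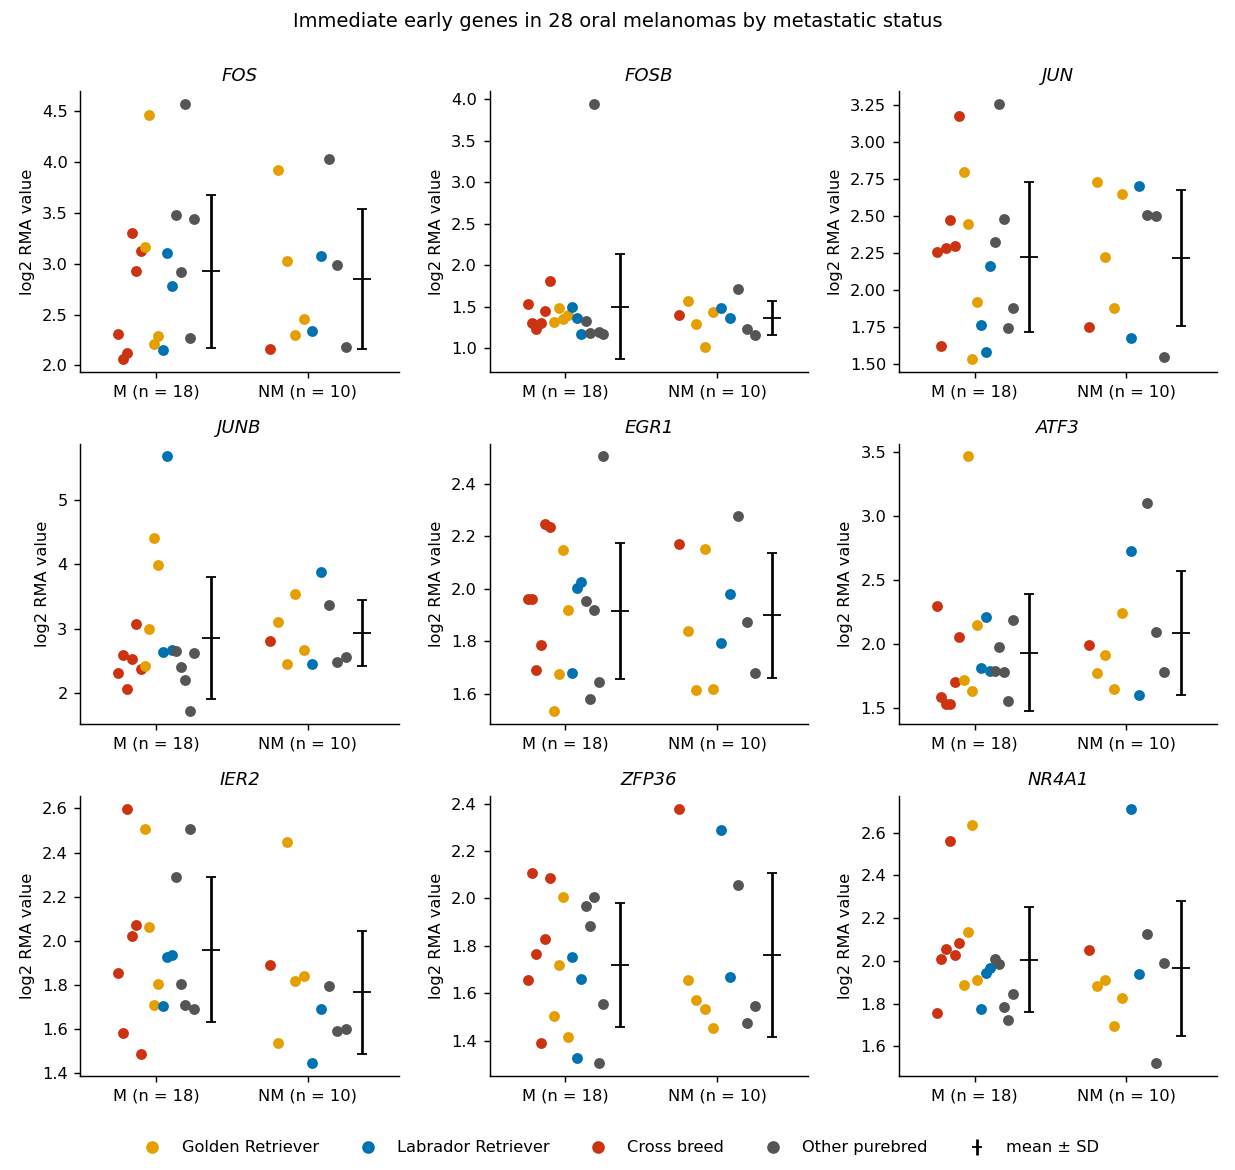
Log2 RMA value (y axis, each gene on its own scale) of 9 immediate early genes in 18 M and 10 NM OMMs, 1 point per tumour coloured by breed, with the mean ± SD beside each group. The 2 groups overlap in every panel, and the Cocker Spaniel tumour (3.94) stands alone in the FOSB panel.

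The tumours that were highest differed from gene to gene. The highest value of the 9 genes fell in 8 tumours, and only the Cocker Spaniel M OMM was highest for a pair of genes, FOS (4.57) and FOSB (3.94). In that tumour JUNB was only 2.20 and NR4A1 only 1.78, the 26th and 23rd highest of 28. Other tumours were high in several genes at once. The Bouvier des Flandres NM OMM was among the 7 highest for 8 of the 9 genes, IER2 (1.80) being the exception, with FOS at 4.03, FOSB at 1.71, ATF3 at 3.10 and EGR1 at 2.28. The opposite held for the first Dachshund M OMM (replicate 1), which was among the 7 lowest for 8 of the 9 genes, with JUNB at 1.72 and ZFP36 at 1.304, while its IER2 (2.51) was the 3rd highest. The Labrador Retriever NM OMM of replicate 4 was highest for NR4A1 (2.71), second for ZFP36 (2.29) and 3rd for ATF3 (2.72), and lowest of all for IER2 (1.44). JUNB was led by the Labrador Retriever M OMM of replicate 5 (5.68), followed by the Golden Retriever M OMMs of replicates 14 (4.40) and 15 (3.99). These tumours were chosen after their values were seen. By the study's RNA integrity assay, the Bouvier des Flandres tumour had the least intact RNA of the 28. Of the 21 tumours not from cross breed dogs, it lay lowest on the first principal component (-52.0). The part of RNA quality in its values was not tested.

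**Figure D2:**
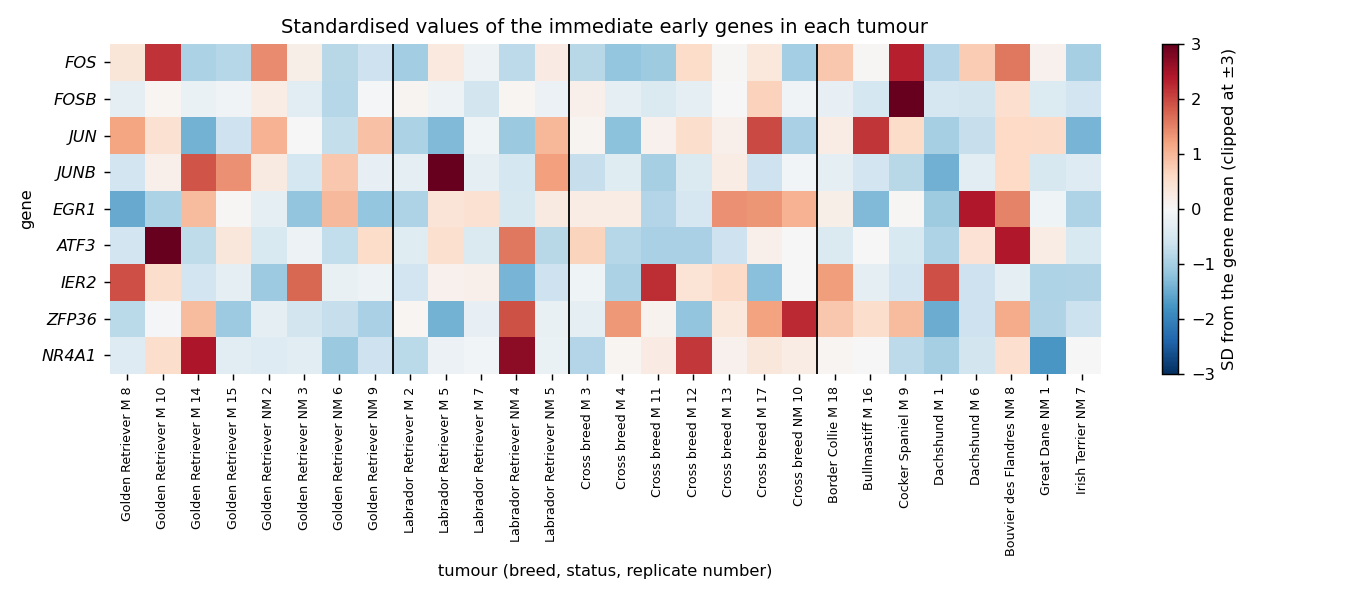
Standardised value (colour, SD from the mean of the gene over 28 tumours, clipped at 3) of 9 genes (y axis) in each tumour (x axis), grouped by breed with lines between the groups. Few columns are red or blue throughout; the Bouvier des Flandres NM 8 column is red for most genes and the Dachshund M 1 column blue for most.

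The genes rose and fell together only in part. Of 36 pairs, 21 had a Pearson r above 0, with a median r of 0.06 and a range from -0.38 to 0.53 over 28 tumours. After Benjamini-Hochberg adjustment over the 36 pairs, 0 passed 0.05 by Pearson r and 1 by Spearman rho (permutation tests with 100000 resamples). That pair was FOS and JUN, the classical AP-1 partners. Their r was 0.52 (p = 0.00518, adjusted p = 0.0932) and their rho 0.61 (p = 0.0008, adjusted p = 0.0288), and r became 0.56 on leaving out the 2 tumours with the most extreme FOS. Within the M OMMs r was 0.42, within the NM OMMs 0.73 and without the cross breed tumours 0.52. By Pearson r the pair passed adjustment after median centring (0.54, adjusted p = 0.0488) and after removing status and breed (0.54, adjusted p = 0.0432). It did not pass after quantile normalisation again (0.46, adjusted p = 0.252) or after removing the first component (0.49, adjusted p = 0.162). Nor did it pass without the cross breed tumours (adjusted p = 0.203).

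FOS and FOSB had the highest r, 0.53 (p = 0.00199, adjusted p = 0.0716), but a rho of 0.34 (p = 0.0792, adjusted p = 0.407). On leaving out the 2 tumours with the most extreme FOS r became 0.32, and without the Cocker Spaniel tumour alone it was 0.34. Within the M OMMs r was 0.55, and within the NM OMMs, which do not include that tumour, 0.65. With the Cocker Spaniel tumour kept, this pair passed adjustment after median centring (r = 0.55, adjusted p = 0.0191) and after quantile normalisation again (0.57, adjusted p = 0.0137). It also passed after removing the first component (0.55, adjusted p = 0.0198) or status and breed (0.52, adjusted p = 0.0389), and without the cross breed tumours (0.56, adjusted p = 0.0328). ZFP36 and NR4A1 had an r of 0.45 (p = 0.0169, adjusted p = 0.203) and a rho of 0.55 (p = 0.0029, adjusted p = 0.0522). Their r fell to 0.31 without the Labrador Retriever NM OMM of replicate 4 and was 0.62 without the cross breed M OMM of replicate 12. It was 0.18 within the M OMMs, 0.76 within the NM OMMs, and 0.69 without the cross breed tumours, where the pair passed adjustment (adjusted p = 0.0256). FOS and ATF3 had an r of 0.40 (p = 0.0316, adjusted p = 0.284) and a rho of 0.28 (p = 0.147, adjusted p = 0.480), and r was 0.19 without the Golden Retriever M OMM of replicate 10. EGR1 and IER2 lay lowest, with an r of -0.38 (p = 0.0446, adjusted p = 0.321) and a rho of -0.29 (p = 0.138, adjusted p = 0.480). These 5 pairs were chosen after their values were seen.

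**Figure D3:**
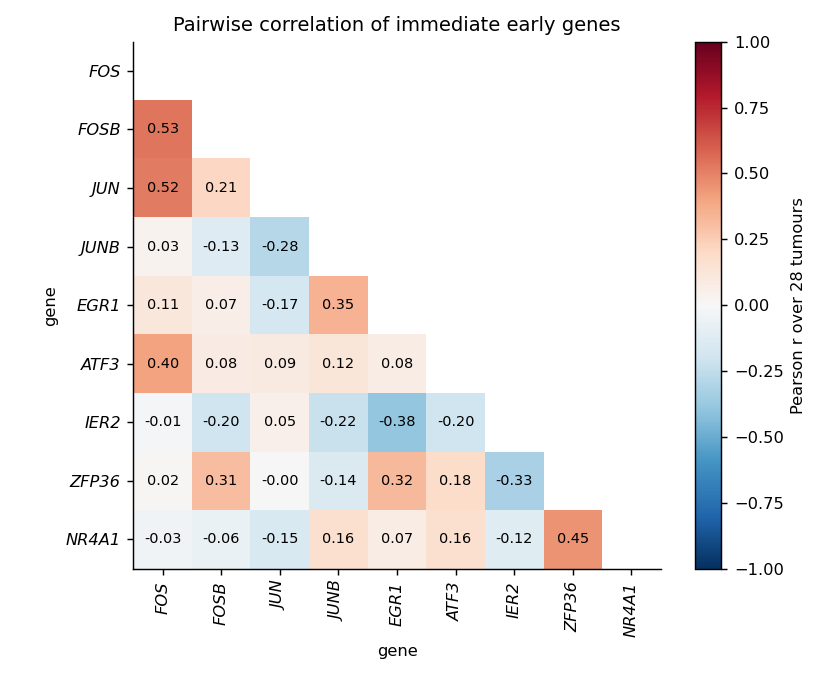
Pearson r over 28 tumours (colour and printed value) for each of the 36 pairs of 9 genes (both axes). FOS with FOSB (0.53) and FOS with JUN (0.52) are highest, and EGR1 with IER2 (-0.38) is lowest.

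**Figure D4:**
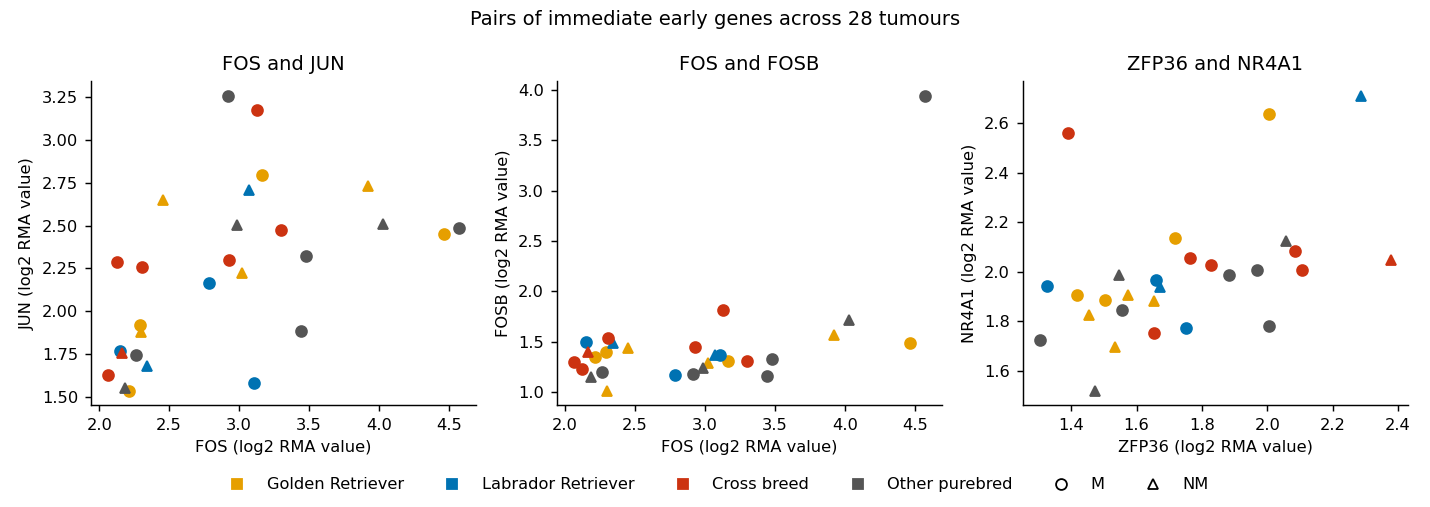
Log2 RMA values of FOS against JUN, FOS against FOSB, and ZFP36 against NR4A1 (both axes in log2 RMA values), 1 point per tumour, coloured by breed, circles for M and triangles for NM OMMs. FOS and JUN rise together across many tumours (rho 0.61), and in the FOSB panel the Cocker Spaniel tumour (3.94) lies far above the other 27 (1.01 to 1.81).

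Array signal was related to EGR1, but only under some settings. EGR1 fell as the first principal component rose, with r at -0.52 (p = 0.00514, adjusted over the 9 genes 0.0463) and rho at -0.58 (p = 0.00161, adjusted p = 0.0145), in permutation tests over 28 tumours. It became -0.44 on leaving out the 2 most extreme tumours on the component, and was -0.62 within the 8 Golden Retriever tumours, -0.55 within the 7 cross breed tumours and -0.36 in the remaining 13. The call was lost without the cross breed tumours (r = -0.50, adjusted p = 0.120), after median centring of each array (r = -0.37, adjusted p = 0.179) and within each breed group. Against the number of Transcript clusters above a log2 value of 4, EGR1 had an r of -0.37 (p = 0.0520, adjusted p = 0.234). FOS had an r of 0.38 with the component (p = 0.0441, adjusted p = 0.166) and ZFP36 one of -0.37 (p = 0.0552, adjusted p = 0.166). Hence 1 of 9 genes passed adjustment with the component and 0 of 9 with the number of bright Transcript clusters. The component was made from all Transcript clusters, EGR1 included, and held 34.9% of their variance. The share of all Transcript clusters related to it as strongly was not counted, so the 1 call has no background beside it. The part of array signal in the values of single tumours was not tested.

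No immediate early gene passed the test between Golden Retriever tumours and those of other dogs, with status in the model. Of the 9 genes, 0 passed by limma at an adjusted p under 0.05 and 0 at an unadjusted p under 0.05, where 2.54% of all Transcript clusters (824) were called and 29.4% had an unadjusted p under 0.05. That count of 824 was 0 without the cross breed tumours, 0 with the first component as covariate and 7182 with array weights, and it ran from 2, without the M OMM of replicate 8, to 4908, without that of replicate 14. JUNB ran through 2.42, 3.05 and 4.40 in the 8 Golden Retriever tumours, and through 1.72, 2.58 and 5.68 in the other 20. They overlapped, with the Golden Retriever tumours higher by 0.44 ± 0.33 (SE, 95% interval -0.24 to 1.12, adjusted p = 0.365, limma). ZFP36 was lower by 0.19 on the log2 scale (difference -0.19 ± 0.12, adjusted p = 0.271) and EGR1 had a difference of -0.14 ± 0.11 (adjusted p = 0.372). With the first component as covariate these differences were 0.74 for JUNB, -0.0925 for ZFP36 and 0.0260 for EGR1. The other 6 genes differed by between -0.11 and 0.15. The median of the 9 was 0.08, against -0.07 over all Transcript clusters.

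In the cross breed tumours 0 of the 9 genes were called by limma, and 0 had an unadjusted p under 0.05. Against the other dogs 19.4% of all Transcript clusters (6281) were called, 14.2% higher and 5.15% lower, and 36.9% had an unadjusted p under 0.05. FOS ran through 2.06, 2.31 and 3.30 in the 7 cross breed tumours and 2.15, 2.99 and 4.57 in the other 21. The groups overlapped, but 6 tumours of other dogs, between 3.44 and 4.57, lay above every cross breed tumour. The difference was -0.49 ± 0.31 (SE, interval -1.12 to 0.15, adjusted p = 0.248). JUNB had a difference of -0.47 ± 0.35 (adjusted p = 0.335). ZFP36 was higher in cross breed tumours by 0.23 ± 0.13 (interval -0.03 to 0.49, adjusted p = 0.178). The medians were 0.00 for the 9 genes and 0.08 for all Transcript clusters. With the first component as a covariate only 3 Transcript clusters were called in this comparison. The differences then were -0.10 for FOS and 0.12 for ZFP36, and -1.03 for JUNB (limma, unadjusted p = 0.0318, adjusted p = 0.616).

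The 5 Labrador Retriever tumours had JUNB values of 2.64, 5.68 and 2.67 in the M OMMs and of 2.46 and 3.88 in the NM OMMs. Only 2 of the 5 stood high. The difference from other dogs was 0.71 ± 0.38 (SE, interval -0.06 to 1.48, adjusted p = 0.838, limma), and it was 0.12 without the M OMM of replicate 5. JUN was lower in the Labrador Retriever tumours by a difference of -0.30 ± 0.23 and IER2 by one of -0.17 ± 0.15 (adjusted p = 0.838 and 0.846). Of the 9 genes 0 were called and 0 had an unadjusted p under 0.05, beside 0% of all Transcript clusters called and 5.41% (1753) before adjustment.

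**Figure D5:**
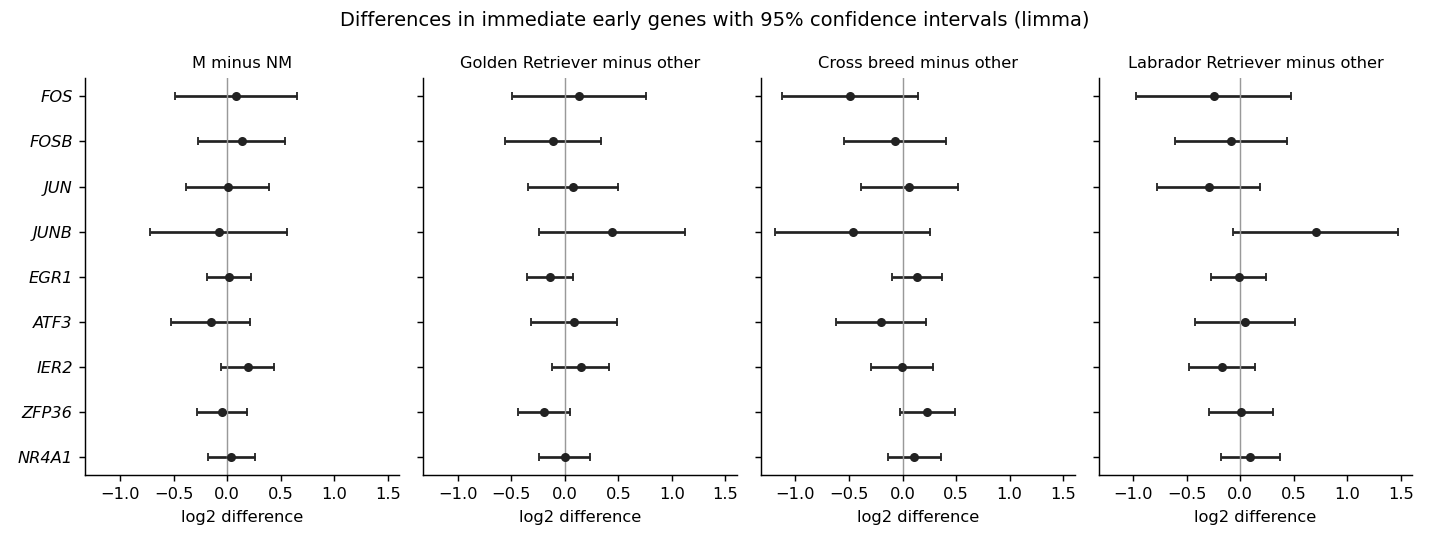
Log2 difference (x axis) with 95% confidence interval (bars, limma) for 9 genes (y axis) in 4 comparisons: M minus NM, and Golden Retriever, cross breed and Labrador Retriever tumours each minus those of other dogs, with status in the model. All intervals include 0, the widest being those of JUNB.

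Whether the M minus NM difference depended on breed was asked for the Golden Retriever, the breed with 4 tumours in each group. Of the 9 genes 0 passed the interaction test by limma, adjusted or unadjusted, beside 0% of all Transcript clusters called and 3.07% (993) before adjustment. ATF3 had the smallest p. It was 1.72, 3.46, 1.64 and 2.14 in the Golden Retriever M OMMs and 1.77, 1.92, 1.65 and 2.24 in the NM OMMs. Only 1 of these tumours was high. The M minus NM difference was 0.35 in Golden Retrievers and -0.37 in other dogs. In those other dogs the NM OMMs of the Bouvier des Flandres (3.10) and a Labrador Retriever (2.72) were highest. The interaction was 0.72 ± 0.38 (SE, p = 0.0674, adjusted p = 1 by limma), and 0.31 without the high Golden Retriever tumour.

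NR4A1 was 1.89, 2.14, 2.64 and 1.91 in the Golden Retriever M OMMs and 1.88, 1.91, 1.70 and 1.82 in the NM OMMs. The M OMMs lay at or above the NM OMMs but for a narrow overlap between 1.89 and 1.91, with a difference of 0.31 ± 0.18 (SE) within the breed, where 0 of the 9 genes were called by limma, adjusted or unadjusted, beside 0% of all Transcript clusters called and 2.88% (934) before adjustment. The interaction was 0.40 ± 0.23 (SE, p = 0.0869, adjusted p = 1 by limma), and 0.24 without the tumour at 2.64. ZFP36 had an interaction of 0.27 ± 0.24 (SE, adjusted p = 1). The within-breed difference of NR4A1 was 0.15 without the same tumour. Within the Golden Retriever tumours 8 of the 9 genes were higher in the M OMMs, against 45.5% of all Transcript clusters, and none passed the test. JUNB had a difference of 0.51, which ran from 0.20, without the M OMM of replicate 14, to 0.86, without that of replicate 8.

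The other members of the early response were read from lists chosen with earlier results of these data known. Of 53 further immediate early genes 42 were measured, and 0 were called between M and NM OMMs by limma, adjusted or unadjusted. The shares of all Transcript clusters were 0% and 2.55%. Their median difference was 0.05, and TNFAIP3, an NF-kB inhibitor, had the smallest p (0.14 ± 0.11, adjusted p = 1). In cross breed tumours, where 19.4% of all Transcript clusters were called but only 3 of 32391 with the first component as covariate, 1 of the 42 was called higher and 2 lower. FOSL1, another FOS family subunit, was higher by 0.32 ± 0.09 (adjusted p = 0.0216), BHLHE40, a circadian repressor, differed by -0.48 ± 0.14 (adjusted p = 0.0216) and MCL1, an anti-apoptotic BCL2 relative, by -0.68 ± 0.24 (adjusted p = 0.0464, limma). In Golden Retriever tumours 0 were called, with MCL1 at 0.76 ± 0.21 (adjusted p = 0.0520). There 5 were higher and 6 lower at an unadjusted p under 0.05 by limma, beside 29.4% of all Transcript clusters. In Labrador Retriever tumours 0 were called, 2 being higher and 2 lower before adjustment, beside 5.41% of all Transcript clusters.

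Of the 20 upstream kinases and transcription factors 17 were measured. Between M and NM OMMs 0 were called by limma and 1 had an unadjusted p under 0.05, beside 2.55% of all Transcript clusters. This was RPS6KA3, the kinase RSK2, at 0.28 ± 0.12. MAP2K4, which activates the JUN kinases, was higher in Golden Retriever tumours by 1.17 ± 0.32 (adjusted p = 0.0478), where 2.54% of all Transcript clusters were called. But that comparison had 0 calls without the cross breed tumours, which holds for HSPH1 below as well. In cross breed tumours ELK1, the partner of SRF, was higher by 0.36 ± 0.09 (adjusted p = 0.00690), and MAP2K2, the kinase MEK2, differed by -0.40 ± 0.11 (adjusted p = 0.0157). Of the 13 further dimer partners of AP-1 10 were measured. In cross breed tumours, beside the same 19.4% of all Transcript clusters and the same loss of all but 3 calls with the component, ATF4 (-0.82 ± 0.25, adjusted p = 0.0236), ATF2 (-0.82 ± 0.25, adjusted p = 0.0254) and MAFG (0.52 ± 0.17, adjusted p = 0.0346) were called.

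Downstream of AP-1 and EGR1, 17 of 21 listed targets were measured. None were called between M and NM OMMs. Before adjustment 3 were higher at a p under 0.05 by limma, beside 316 of all 32391 Transcript clusters. Of these 3, TIMP1, the metalloproteinase inhibitor, stood at 0.49 ± 0.20. In cross breed tumours 3 of the 17 were called lower, where 5.15% of all Transcript clusters were called lower and 19.4% in either direction, with 3 calls in all when the component was a covariate. These were THBS1 (-0.66 ± 0.19, adjusted p = 0.0188), CD44 (-1.20 ± 0.36, adjusted p = 0.0224) and F3 (-1.72 ± 0.58, adjusted p = 0.0374), which encode thrombospondin, the hyaluronan receptor and tissue factor. Of 11 heat shock and stress genes measured 1 was called in Golden Retriever tumours, the chaperone HSPH1 (0.55 ± 0.10, adjusted p = 0.0167), and 4 in cross breed tumours. The shares of all Transcript clusters called in these comparisons were 2.54% and 19.4%. The 4 were called without the component as covariate. These 4 were HSPA5 (-0.83 ± 0.16, adjusted p = 0.00227), DDIT4 (0.95 ± 0.25, adjusted p = 0.0123), HSPA8 (-1.28 ± 0.41, adjusted p = 0.0303) and DNAJB1 (-0.71 ± 0.24, adjusted p = 0.0388). Markers of cell types were also called in the cross breed tumours, where 14.2% of all Transcript clusters were called higher and 5.15% lower. With the component as covariate, only 3 of all Transcript clusters were called. Neutrophil markers had 3 of 6 called lower (median -1.44), while the other 3 were higher without a call. Fibroblast markers had 2 of 8 called lower (median -0.82, all 8 lower), and endothelial, macrophage and smooth muscle markers 1 each. Melanocyte, T and NK cell, B and plasma cell, oral epithelium and skeletal muscle markers had 1 each called higher. Yet 6 of 8 melanocyte markers (median -0.64) and 7 of 10 oral epithelium markers (median -0.59) were lower. Higher were 4 of 7 T and NK cell, 4 of 5 B and plasma cell and 5 of 7 skeletal muscle markers. Neutrophil markers averaged from 1.79 to 3.51 in the cross breed tumours and from 1.501 to 5.16 in the others, the fibroblast average ranging from 2.32 to 2.70 in these tumours and from 2.28 to 4.89 in the others. The part of these cell types in the breed differences was not tested.

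Genes of the most similar pattern were ranked over the 28 tumours among the 8703 brighter Transcript clusters that carry a single symbol. The values are a description, with no test, since the highest were picked. FOS was followed by CIB1 (r = 0.69), GFPT1 (0.69), EPS8 (0.67), ARFGAP3 (0.66) and KIN (0.65), of which GFPT1, the first enzyme of hexosamine synthesis, had a rho of 0.74 and an r of 0.68 with the first component. EGR1 was followed by HJV (0.80), OR56A1 (0.73), LOC484867 (0.73), OPN4 (0.72) and ODF3L1 (0.72). These include an olfactory receptor and an opsin, and had r values from -0.77 to -0.36 with the first component. The mean of the 9 standardised genes was most like SELENBP1 (0.63), ADM (0.60), IFI6 (0.59), IDH3B (0.59) and NTN1 (0.58). None of these genes was among the other immediate early genes listed above.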

How the data were processed

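RNA was isolated from FFPE OMM biopsies and hybridised to Canine Gene 1.1 ST arrays. The authors made the deposited log2 values with Affymetrix Expression Console 1.3: the RMA algorithm quantile normalised, log2-transformed and summarised probe signals per Transcript cluster. The genome build is not given in the sources used here. Arrays have no counts; the number of tumours and the dim signal limit the precision.

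The members and gene lists were chosen with earlier results of these data known. Symbols came from the array's annotation table; 176 of 203 listed genes were measured. All 32391 Transcript clusters were tested with limma 3.58.1 in R 4.3.3 (Benjamini-Hochberg, threshold 0.05) in 6 comparisons, each tested on simulated data. Named genes were all members, up to 4 called genes per list by smallest p (otherwise those with the smallest p), and the 5 most similar patterns; for DUSP1, with no Transcript cluster, this was left out. In breed and interaction comparisons values were given for the 3 members with the smallest p. Correlations used permutation with 100000 resamples in Python 3.11.15. Replicate numbers link no tumours: over 10 same-numbered pairs the deviations correlated from -0.41 to 0.12. Alternatives were other normalisations, filters, tests and covariates, and each tumour left out in turn.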

Additional observations from a re-analysis of the deposited data

Results flagged for a closer look

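In 45 combinations of a gene and a group of 5 to 10 tumours (the NM OMMs and 4 breed groups), 8 had a highest tumour set apart from the others by an unusually large gap; chance flags about 1 in 20 groups, the groups share tumours, and the sets of tumours overlap between NM and breed. FOSB stood out in the Cocker Spaniel M OMM (3.94, next 1.71 among 8 other purebred tumours). ATF3 stood out in the Golden Retriever M OMM of replicate 10 (3.46, next 2.24 of 8) and in the Bouvier des Flandres NM OMM (3.10, next 2.19 of 8). NR4A1 stood out in the Labrador Retriever NM OMM of replicate 4 (2.71) among both the NM OMMs (next 2.13) and the 5 Labrador Retriever tumours (next 1.97). It also stood out in the Golden Retriever M OMM of replicate 14 (2.64, next 2.14) and in the cross breed M OMM of replicate 12 (2.56, next 2.08). IER2 stood out in the Golden Retriever NM OMM of replicate 3 (2.45, next 1.89 among the NM OMMs). In no group was a lowest tumour set apart in this way.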

How the results depend on the processing

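Depth is not defined for arrays, 6 of 9 genes had a mean under 2, and groups of 5 to 10 tumours leave wide intervals. Over all 9 genes and 6 comparisons, 391 of 426 values under other settings kept their direction and 35 changed sign, all from differences of 0.15 or less; with each tumour left out in turn 1226 of 1332 kept it. None of these values passed an adjusted p of 0.05 (lowest 0.160 and 0.0820), and M versus NM had 0 calls throughout.

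Among values given in the report, the M minus NM differences near 0 changed sign as follows. JUN was -0.0684 with array weights, -0.00104 with breed as a random block, -0.0744 within 3 shared breeds with breed as a fixed block, and -0.111 without the cross breed tumours. JUNB was 0.0524, 0.332 and 0.0883 under the last 3 of these settings. EGR1 was -0.0117 with the random block and -0.0288 in the shared breeds, where ATF3 was 0.0614. The replicate block, on the 20 tumours whose number occurs in both groups, gave JUN -0.143, EGR1 -0.00873 and NR4A1 -0.0825; only 1 of 10 NM OMMs correlated best with its own number, so the numbers do not pair tumours, and the block changed no call. Leaving out 1 tumour moved FOS from -0.0172 to 0.211, FOSB from -0.00806 to 0.174, JUN from -0.0686 to 0.0626, JUNB from -0.245 to 0.0265, EGR1 from -0.0192 to 0.0574, ZFP36 from -0.0787 to 0.0240, NR4A1 from -0.00903 to 0.123, and ATF3 within Golden Retrievers from -0.0610 to 0.549. The Golden Retriever difference of EGR1 was 0.0260 with the first component as covariate, and the r of FOS with that component was -0.31 within cross breed tumours.

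Counts over all Transcript clusters moved most. Golden Retriever calls (824) were 2214 with only the brighter Transcript clusters, 104 after quantile normalisation again, 241 with trend and robust, 7182 with array weights, 83 with no term for status, 0 with the first component as covariate and 0 without the cross breed tumours, and from 2 (without the M OMM of replicate 8) to 4908 (without that of replicate 14). Cross breed calls (6281) were 2594 with 1 gene symbol only and 3 with the component, and from 3771 to 7695 leaving out 1 tumour. Labrador Retriever calls (0) were 2 with array weights and 13 without the cross breed tumours, and 0 to 1 leaving out 1 tumour, as for the interaction and within Golden Retrievers. Pairs of genes called (0) were 1 by Spearman rho, 2 after median centring, 1 after quantile normalisation, 1 after the component, 3 after status and breed, 2 without the cross breed tumours, and 0 to 2 leaving out 1 tumour. Genes called with the component (1) were 0 after median centring, 0 without the cross breed tumours and 0 within each breed group. The cause was not tested.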
